A study of Homo sapiens with 30 samples.

Results

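The genes described here are luminal transcription factors, mucins and secretory products of breast epithelium: MUC1, MUC20, ELF3, EHF, GATA3, SLPI, LCN2, WFDC2, AGR2 and CD24. The 10 genes are grouped by their known roles, and all probes annotated to their symbols were taken. They, and the gene lists set beside them, were chosen with earlier results of these data known. No probe was annotated to MUC20, which was not analysed here. The other 9 genes had 13 probes, all of which passed the detection filter (detection p under 0.05 on at least 3 arrays), out of 26967 probes and 13721 genes measured in all. Each gene is given by its brightest probe, and the 4 further probes (of MUC1, AGR2 and CD24) are given beside it.

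Transcripts were profiled on 30 Illumina bead arrays of cells labelled MCF-10A, a non-transformed human breast epithelial line. Every culture, controls included, overexpressed cyclin E, a cyclin that drives entry into S phase and causes replication stress when in excess, with stable expression of a short hairpin RNA (shRNA). These were shControl, and shATM, shATR, shCHK1 and shCHK2 against 4 kinases that signal DNA damage and stalled replication. Each was present in set 1 and in set 2 with 3 replicates, which made 10 groups of 3 arrays, and cells were harvested after 48 hours. How the sets differ is not stated in the labels, nor whether replicates came from different cultures or each shRNA line was 1 clone, so SE and p-values measure the spread between arrays.

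In the mammary gland, luminal cells line the duct and basal cells lie beneath them. GATA3, ELF3 and EHF are transcription factors of luminal or secretory epithelium. Such cells carry the mucin MUC1 and the glycoprotein CD24 on their surface and release protective proteins such as SLPI, LCN2 and WFDC2, while AGR2 helps to fold secreted proteins in the endoplasmic reticulum.

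Some checks of the labels bear on every comparison with shControl. The transcript of the targeted kinase was lower than in shControl for ATM (log2 difference -0.67 in set 1 and -0.30 in set 2) and for CHEK1 (-0.38 and -1.18). CHEK2 was lower in set 1 (-0.55, adjusted p = 0.0011) and was not called in set 2 (-0.15, adjusted p = 0.38). Against shCHK2 in set 2, CHEK2 was higher with shATM, shATR and shCHK1 by 0.69, 0.86 and 0.72 (adjusted p = 0.00092, 0.00034 and 0.0021). In set 1 it was higher than with shCHK2 only with shCHK1 (0.58, adjusted p = 0.0076). There shATM (0.28, adjusted p = 0.19) and shATR (0.20, adjusted p = 0.50) were not called. The ATR probe was at background in controls, detected on 0 of 3 arrays in set 1 and on 2 of 3 in set 2. It could therefore not show a knockdown. In the groups with the ATR shRNA label it was detected on 3 of 3 and 2 of 3 arrays. It was higher there than in shControl in set 1 (0.65, adjusted p = 0.0021) and not called in set 2 (0.03, adjusted p = 0.90). Those groups are called the arrays labelled shATR, or shATR for short, and count as a knockdown by label only. CCNE1, which encodes the overexpressed cyclin, was lower in all 8 knockdown groups, by -0.94 to -2.72. CDKN2A, a gene that MCF-10A cells are known to have lost, was detected on 0 of 6 control arrays and on 24 of 24 knockdown arrays. Its neighbour MTAP was detected on 2 of 6 control arrays and on 24 of 24 knockdown arrays. An effect of the shRNAs and a difference in origin between control and knockdown cells therefore cannot be told apart in comparisons with shControl. Comparisons between knockdowns leave the control arrays out. The arrays detected 18984 to 21732 probes each, and replicates correlated at r = 0.986 to 0.995 across probes. Replicate 3 of the arrays labelled shATR in set 2 and of shCHK2 in set 1 stood apart on the third principal component. Without both, 61 and 6 member comparisons with shControl were called lower and higher, the same counts as with them.

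The promoters of 4 members called lower in all 8 comparisons with shControl, and of LCN2, whose differences from shControl varied most between sets, are shown so that the sequence upstream of each start can be seen. They run from 250 bases before to 50 bases after a start in RefSeq (build GRCh38.p14), and 8 of the members had an entry. GATA3, which has 6 listed promoters, is not shown. Capitals mark matches, on either strand, to TGANTCA (the AP-1 motif), CCGGAAG (the ETS motif), AGATAA (the motif of GATA factors), AACCNGTT (the grainyhead-like motif), TATAAA (the TATA box) or the NF-kB consensus. No 2 capitalised matches overlap in these 5 promoters.
MUC1, chr1:155192866-155193165, minus strand: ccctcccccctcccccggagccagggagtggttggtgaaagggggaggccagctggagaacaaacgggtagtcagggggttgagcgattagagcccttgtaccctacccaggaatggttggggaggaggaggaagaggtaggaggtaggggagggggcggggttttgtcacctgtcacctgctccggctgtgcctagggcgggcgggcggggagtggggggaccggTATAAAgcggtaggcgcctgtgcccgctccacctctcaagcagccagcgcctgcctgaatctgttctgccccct
ELF3, chr1:202010337-202010636, plus strand: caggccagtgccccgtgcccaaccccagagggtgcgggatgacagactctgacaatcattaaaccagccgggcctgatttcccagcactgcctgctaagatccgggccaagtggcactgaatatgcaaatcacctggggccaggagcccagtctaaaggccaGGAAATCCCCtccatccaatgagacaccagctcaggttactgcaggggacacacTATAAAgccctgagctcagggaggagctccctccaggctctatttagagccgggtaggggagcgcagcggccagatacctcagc
WFDC2, chr20:45469503-45469802, plus strand: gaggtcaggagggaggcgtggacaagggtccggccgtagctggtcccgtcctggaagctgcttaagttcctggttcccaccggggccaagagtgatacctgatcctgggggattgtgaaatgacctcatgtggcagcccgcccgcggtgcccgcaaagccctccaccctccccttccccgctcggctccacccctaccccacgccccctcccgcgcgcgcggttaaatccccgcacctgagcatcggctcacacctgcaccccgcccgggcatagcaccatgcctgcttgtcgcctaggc
AGR2, chr7:16804950-16805249, minus strand: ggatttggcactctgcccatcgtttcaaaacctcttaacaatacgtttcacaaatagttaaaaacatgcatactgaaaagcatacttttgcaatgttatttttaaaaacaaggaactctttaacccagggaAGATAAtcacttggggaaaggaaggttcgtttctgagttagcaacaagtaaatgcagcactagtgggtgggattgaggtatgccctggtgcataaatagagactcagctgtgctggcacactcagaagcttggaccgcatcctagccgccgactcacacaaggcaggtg
LCN2, chr9:128149203-128149502, plus strand: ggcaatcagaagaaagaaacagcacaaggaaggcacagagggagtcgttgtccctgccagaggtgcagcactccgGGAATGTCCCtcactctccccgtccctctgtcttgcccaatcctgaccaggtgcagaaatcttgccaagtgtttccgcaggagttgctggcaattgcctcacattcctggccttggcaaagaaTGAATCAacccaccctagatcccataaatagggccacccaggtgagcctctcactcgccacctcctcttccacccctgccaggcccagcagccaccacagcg
MUC1 and ELF3 have a TATA box that begins 24 and 34 bases before the start shown. MUC1 has 2 listed starts, and the same box begins 30 bases before the other. Of all 35116 listed promoters, 11.5% hold that motif. ELF3 has an NF-kB match on the opposite strand at -88 and LCN2 has one at -175, against 11.3% of all promoters. LCN2 also holds an AP-1 match at -52 (7.71% of all promoters) and AGR2 a GATA match at -119 (10.3%). None of these letters occurs in the WFDC2 window, which says nothing about the factors. A match describes the sequence and is not evidence of binding.

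Against shControl, most members were lower in every knockdown group, and the 9 genes were not alike. MUC1, ELF3, GATA3, WFDC2, AGR2 and SLPI were called lower (adjusted p under 0.05) in all 8 comparisons, with the largest differences in MUC1. LCN2, CD24 and EHF were called lower in most comparisons of set 2, while in set 1 EHF and CD24 were higher or not called. Of 72 member comparisons, 61 were called lower and 6 higher, beside 26.1% and 24.3% of all gene comparisons. Since the members were chosen with earlier results of these data known, such counts are a description. In set 1, 6, 6, 7 and 7 of 9 members were lower with shATM, shATR, shCHK1 and shCHK2, where 23.5%, 23.4%, 24% and 24.3% of all genes were lower. In set 2, 9, 8, 9 and 9 were lower, where 28.7%, 28.4%, 27.9% and 29% of all genes were. Members higher in set 1 numbered 3, 2, 0 and 1, beside 23.1%, 23.6%, 24.5% and 25% of all genes. The 6 genes called lower in all 8 stood beside 1790 genes (13%) overall. The median member difference was -1.53, -2.39, -2.44 and -2.19 in set 1 and -2.18, -2.69, -2.52 and -2.74 in set 2. The median over all genes lay between -0.01 and 0.01, which quantile normalization tends to hold near 0. With WFDC2 set at the lower bound of its fold, the set 1 medians for shATR, shCHK1 and shCHK2 became -1.95, -2.34 and -2.10. Less RNA per cell and fewer cells that express a gene cannot be told apart in bulk RNA.

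**Figure D1:**
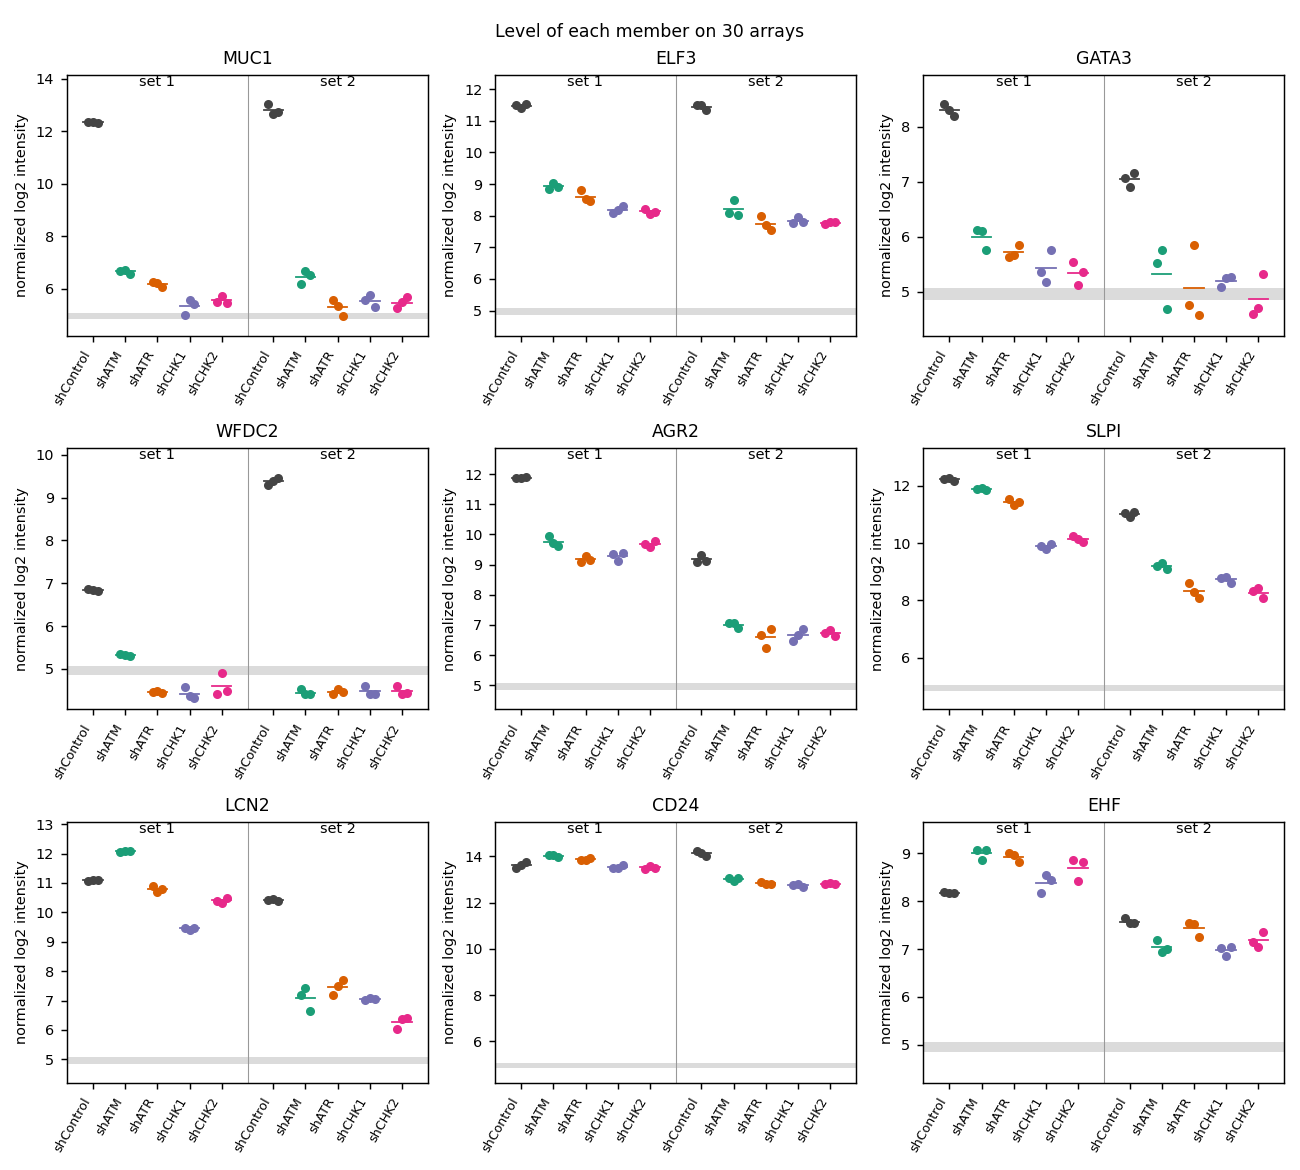
Normalized log2 intensity (y axis) of the 9 members on the 30 arrays, by shRNA and set (x axis). Points are single arrays, short lines group means, and the grey band is the range over arrays of the dimmest detected probe (4.85 to 5.06); MUC1, ELF3, GATA3 and WFDC2 are highest on the shControl arrays, while EHF and CD24 are higher with shATM than with shControl in set 1 and lower in set 2.

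Among the transcription factors, ELF3, an ETS factor that is specific to epithelia, was lower in every knockdown group. In set 1 it read 11.50, 11.41 and 11.54 (normalized log2 intensity of replicates 1 to 3) with shControl, 8.85, 9.02 and 8.90 with shATM, 8.82, 8.53 and 8.45 on the arrays labelled shATR, 8.08, 8.19 and 8.31 with shCHK1, and 8.22, 8.06 and 8.11 with shCHK2. In set 2 it read 11.51, 11.48 and 11.33, then 8.09, 8.49 and 8.02, then 7.99, 7.69 and 7.56, then 7.77, 7.96 and 7.80, and 7.73, 7.79 and 7.79 in the same order. No knockdown array overlapped the control arrays of its set. The log2 differences were -2.56, -2.88, -3.29 and -3.35 in set 1 and -3.24, -3.69, -3.60 and -3.67 in set 2 (SE 0.12), that is 5.89- to 12.9-fold lower, with adjusted p of at most 1.7e-15.

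GATA3, which specifies the luminal lineage of the mammary gland, was lower as well, from a dimmer start. In set 1 it read 8.42, 8.31 and 8.20 with shControl, 6.13, 6.11 and 5.75 with shATM, 5.63, 5.67 and 5.85 on the arrays labelled shATR, 5.36, 5.17 and 5.77 with shCHK1, and 5.55, 5.13 and 5.35 with shCHK2. In set 2 the control arrays read 7.06, 6.90 and 7.17 and the knockdown arrays 4.58 to 5.86. The groups did not overlap in either set. Differences ran from -2.32 to -2.97 in set 1 and from -1.72 to -2.17 in set 2 (SE 0.26). In set 2, GATA3 was detected on 2 of 3 arrays with shATM, and on 1 of 3 arrays each labelled shATR and shCHK2, so those values lie close to background.

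EHF, an ETS factor related to ELF3, changed in opposite directions in the sets. In set 1 it read 8.19, 8.17 and 8.17 with shControl, 9.08, 8.85 and 9.08 with shATM, 9.02, 8.96 and 8.82 on the arrays labelled shATR, 8.18, 8.54 and 8.44 with shCHK1, and 8.87, 8.43 and 8.81 with shCHK2. The set 2 arrays read 7.64, 7.54 and 7.54, then 7.18, 6.94 and 7.01, then 7.54, 7.53 and 7.24, then 7.02, 6.85 and 7.04, and 7.15, 7.04 and 7.35. The differences were 0.83, 0.76, 0.21 and 0.53 in set 1 and -0.53, -0.13, -0.60 and -0.39 in set 2 (SE 0.12). The difference for shCHK1 in set 1 (adjusted p = 0.20) and for shATR in set 2 (adjusted p = 0.42) was not called, and in both the arrays overlapped the controls. Their 95% intervals were -0.05 to 0.46 and -0.39 to 0.12.

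MUC1, a transmembrane mucin of the apical surface of luminal cells, had the largest differences of the 9 members. It read 12.36, 12.36 and 12.31 with shControl in set 1, and 13.03, 12.64 and 12.74 in set 2. With shATM it read 6.68, 6.72 and 6.58 in set 1 and 6.18, 6.69 and 6.51 in set 2. On the arrays labelled shATR it read 6.26, 6.20 and 6.05, and 5.57, 5.34 and 4.97. All knockdown arrays lay far below the control arrays. With shCHK1 it read 4.99, 5.56 and 5.42 in set 1 and 5.56, 5.75 and 5.28 in set 2, and with shCHK2 5.49, 5.72 and 5.44, and 5.24, 5.50 and 5.67. Differences from shControl were -5.68, -6.17, -7.02 and -6.79 in set 1 and -6.35, -7.51, -7.27 and -7.33 in set 2 (SE 0.16), or 51.3- to 182-fold lower. The probe was detected on 29 of 30 arrays, but on 2 of 3 labelled shATR in set 2, the group with the largest fold. Levels there and with shCHK1 and shCHK2 lay close to the dimmest detected probes (4.85 to 5.06), so these folds are not exact sizes. Both further probes were called lower in all 8 comparisons too, one by -5.86 with shATM in set 1 and at least 71.1-, 97.1- and 94.7-fold in the groups where it was not detected, the other by -2.37 with shATM in set 1.

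The secreted inhibitors and binding proteins differed from shControl by unequal amounts, and LCN2 was higher in 1 comparison. WFDC2, a secreted protein with WAP domains, read 6.88, 6.85 and 6.82 with shControl in set 1 and 9.30, 9.39 and 9.45 in set 2. It read 5.36, 5.31 and 5.29 with shATM in set 1, and it was detected on 0 of 21 arrays of the other knockdown groups. The difference with shATM in set 1 was -1.53 (SE 0.10, 2.89-fold lower). Where a group was not detected on any of its 3 arrays, a fold is a bound against the dimmest detected probes, and WFDC2 was at least 3.86-, 3.77- and 3.86-fold lower with shATR, shCHK1 and shCHK2 in set 1. In set 2 it was at least 20.3-, 20.9-, 20.7- and 20.4-fold lower in the 4 knockdowns. The controls of set 1 were dimmer, which lowers the bounds there.

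SLPI, which inhibits leukocyte proteases, read 12.23, 12.29 and 12.16 with shControl in set 1, 11.89, 11.93 and 11.84 with shATM, 11.54, 11.34 and 11.42 on the arrays labelled shATR, 9.89, 9.79 and 9.97 with shCHK1, and 10.24, 10.13 and 10.02 with shCHK2. The arrays of set 2 read 11.04, 10.92 and 11.09, then 9.21, 9.29 and 9.11, then 8.60, 8.28 and 8.10, then 8.80, 8.82 and 8.61, and 8.33, 8.42 and 8.07. All knockdown arrays were below the control arrays of their set. The differences were -0.34, -0.79, -2.34 and -2.10 in set 1 and -1.81, -2.69, -2.27 and -2.74 in set 2 (SE 0.11). The difference with shATM in set 1 (adjusted p = 0.020) was lost with median scaling (-0.25, adjusted p = 0.20), without replicate 2 of shControl set 1 (adjusted p = 0.070) and without replicate 3 of shATM set 1 (adjusted p = 0.063). SLPI and WFDC2 both lie on chromosome 20, where the median difference of 369 genes was 0.26 to 0.42 in the 8 comparisons; whether this bears on either gene was not tested.

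LCN2, a secreted protein that binds bacterial siderophores, was the member whose differences from shControl varied most. In set 1 it read 11.08, 11.11 and 11.10 with shControl, 12.07, 12.09 and 12.09 with shATM, 10.89, 10.69 and 10.78 on the arrays labelled shATR, 9.46, 9.42 and 9.48 with shCHK1, and 10.39, 10.33 and 10.50 with shCHK2. The set 2 arrays read 10.42, 10.46 and 10.38, then 7.17, 7.43 and 6.65, then 7.18, 7.49 and 7.72, then 7.01, 7.09 and 7.05, and 6.04, 6.37 and 6.41. In set 1 it was highest with shATM and in set 2 all knockdowns were far below the controls. Differences in set 1 were 0.99, -0.31, -1.64 and -0.69 (SE 0.14), of which that of the arrays labelled shATR was not called (adjusted p = 0.091, 95% interval -0.60 to -0.02). Differences in set 2 were -3.33, -2.96, -3.37 and -4.15, or 7.77- to 17.7-fold lower.

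AGR2, a disulfide isomerase of the secretory pathway, was lower in all 8 comparisons by -2.13 to -2.71. Its bright probe read 11.88, 11.87 and 11.89 with shControl in set 1 and 9.10, 9.32 and 9.13 in set 2. On knockdown arrays it read 9.10 to 9.93 in set 1 and 6.22 to 7.07 in set 2, with no overlap with the controls. The differences were -2.13, -2.71, -2.59 and -2.19 in set 1 and -2.18, -2.60, -2.52 and -2.45 in set 2 (SE 0.13). The second AGR2 probe gave -2.66, -2.29, -2.45 and -2.23 in set 1, all called. For set 2 it gave 0.25, -0.20, -0.48 and -0.34, none called, where its controls were already near background (detected on 2 of 3 arrays). A probe whose controls lie at background cannot show a fall, so the set 2 difference of AGR2 rests on the bright probe alone.

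CD24, a glycosyl-phosphatidylinositol-anchored surface protein of luminal cells, was higher with shATM and shATR in set 1 and lower with all 4 knockdowns in set 2. Signal from near-identical CD24 copies elsewhere in the genome cannot be separated, so its level is uncertain. In set 1 it read 13.48, 13.64 and 13.73 with shControl, 14.05, 14.05 and 13.96 with shATM, 13.83, 13.84 and 13.92 on the arrays labelled shATR, 13.51, 13.50 and 13.64 with shCHK1, and 13.45, 13.59 and 13.51 with shCHK2. In set 2 it read 14.21, 14.15 and 14.02 with shControl and 12.68 to 13.04 on the knockdown arrays. Differences were 0.40 (adjusted p = 0.00030), 0.25 (adjusted p = 0.020), -0.07 and -0.10 in set 1. In set 2 they were -1.11, -1.30, -1.38 and -1.31 (SE 0.08). The second CD24 probe was 0.77 higher with shATM in set 1 and gave -1.49 to -2.07 in set 2, and was not called for shATR in set 1 (0.33, adjusted p = 0.073).

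**Figure D2:**
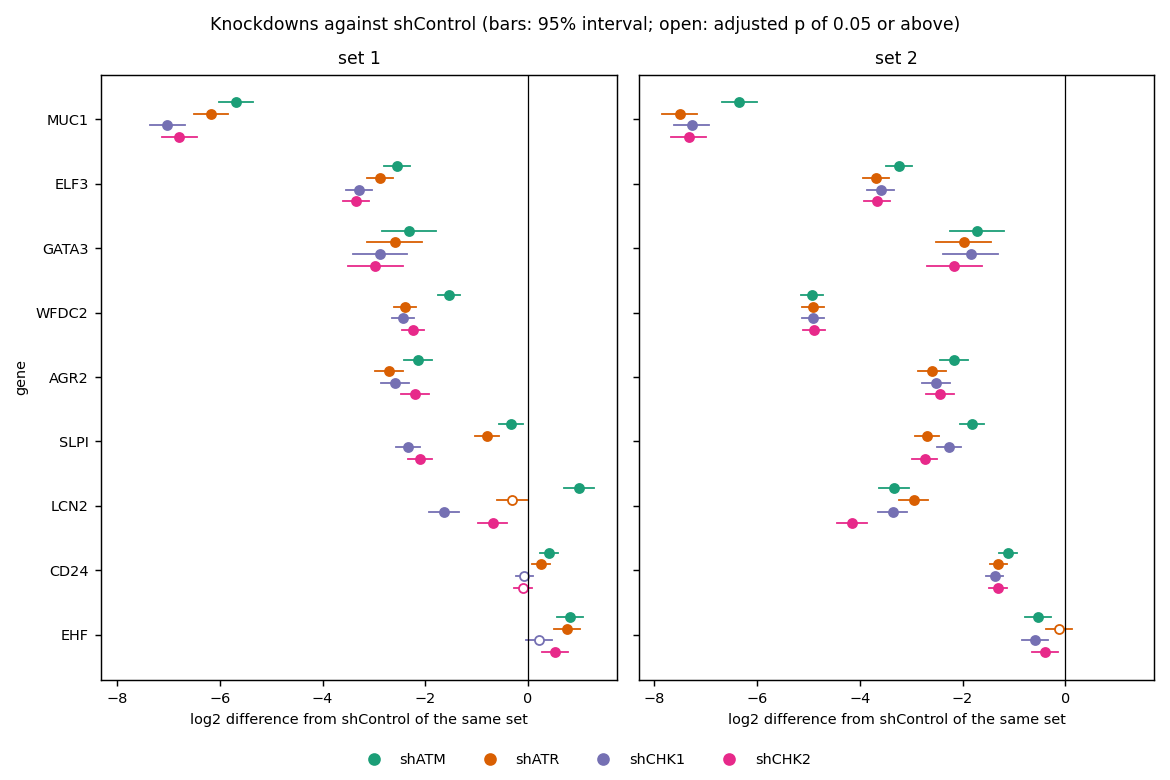
Log2 difference of each knockdown from shControl of its own set (x axis) for the 9 members (y axis), set 1 on the left and set 2 on the right. Bars are unadjusted 95% intervals and open points have an adjusted p of 0.05 or above. MUC1, ELF3, GATA3, AGR2, SLPI and WFDC2 lie below 0 in all 8 comparisons, and fitted WFDC2 values of groups below background are not folds.

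Between knockdowns, where no control array enters, 41 of 108 member comparisons were called, beside 5.67% of all gene comparisons. Members were higher with shATM than with the other shRNAs in set 1. Against shCHK1, 8 of 9 were higher (5.87% of all genes were higher), against shCHK2, 6 of 9 (7.43%), and against shATR, 4 of 9 (0.991%), and none was lower. The SLPI call against shATR was lost with median scaling (adjusted p = 0.46) and without each of 6 single arrays (0.066 to 0.22). The AGR2 calls against shATR and shCHK1 were lost with median scaling, with the mean of its probes and without each of 4 single arrays. EHF and CD24 against shCHK1, and CD24 against shCHK2, were lost with median scaling. In set 2, 3, 2 and 4 members were higher with shATM than with shATR, shCHK1 and shCHK2 (3.72%, 2.7% and 5.03% of all genes). In the other pairs of set 1, 5 members were called between shATR and shCHK1 (3.46% of all genes), 5 between shATR and shCHK2 (5.45%) and 1 between shCHK1 and shCHK2 (5.82%). In those of set 2 the counts were 0 (1.12%), 1 (2.26%) and 2 (2.3%). The count of 41 fell to 25 when arrays were scaled by their medians, so this result depends on the scaling. GATA3 was called in 0 of 12 pairs.

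SLPI and LCN2 differed most between knockdowns. In set 1, SLPI was 2.00 log2 units higher with shATM than with shCHK1 and 1.76 higher than with shCHK2, and LCN2 was 2.63, 1.68 and 1.29 higher with shATM than with shCHK1, shCHK2 and shATR. On the arrays labelled shATR, SLPI was 1.55 and 1.31 higher than with shCHK1 and shCHK2, and LCN2 1.33 higher than with shCHK1. LCN2 was lower with shCHK1 than with shCHK2 in set 1 (-0.95) and higher in set 2 (0.78, adjusted p = 0.0023), the latter lost with median scaling (adjusted p = 0.060). In set 2 the SLPI order was shATM, shCHK1, shATR, shCHK2, with shCHK1 against shATR (adjusted p = 0.083) and shATR against shCHK2 (0.89) not called. The SLPI calls for shATM against shCHK1 and shCHK1 against shCHK2 were lost with median scaling (adjusted p = 0.19 and 0.28). They were also lost without each of 2 and 4 single arrays (0.079 to 0.10 and 0.057 to 0.17).

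MUC1 with shATM exceeded shCHK1 and shCHK2 in both sets (1.34 and 1.11 in set 1, 0.93 and 0.99 in set 2) and shATR in set 2 (1.16). The lower group of each of these pairs lay close to background, so the sizes are not exact. For MUC1, shATM against shATR was not called in set 1 (0.49, adjusted p = 0.18, 95% interval 0.15 to 0.83). ELF3 with shATM was 0.73 and 0.79 higher than with shCHK1 and shCHK2 in set 1. Neighbouring levels in its set 1 order, shATM, shATR, shCHK1 and shCHK2, were not called apart. Under some alternatives, among them the authors' deposited log2 values (0.32, adjusted p = 0.030), shATR was called above shCHK1. In set 2, ELF3 with shATM was called above shATR and shCHK2. Both calls were lost with median scaling (adjusted p = 0.34 and 0.28) and without some single arrays. WFDC2 with shATM was at least 1.34-, 1.30- and 1.34-fold higher than with shATR, shCHK1 and shCHK2 in set 1. AGR2 was lower with shATR than with shCHK2 in set 1 (-0.52, adjusted p = 0.025), a call lost with median scaling (adjusted p = 0.13), with the mean of its probes (-0.29, adjusted p = 0.17), and without shATR set 1 replicate 1 or 3 or shCHK2 set 1 replicate 3 (adjusted p 0.10 to 0.14). Of the 41 calls between knockdowns, 23 were kept under every alternative that gave a value and without any single array.

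**Figure D3:**
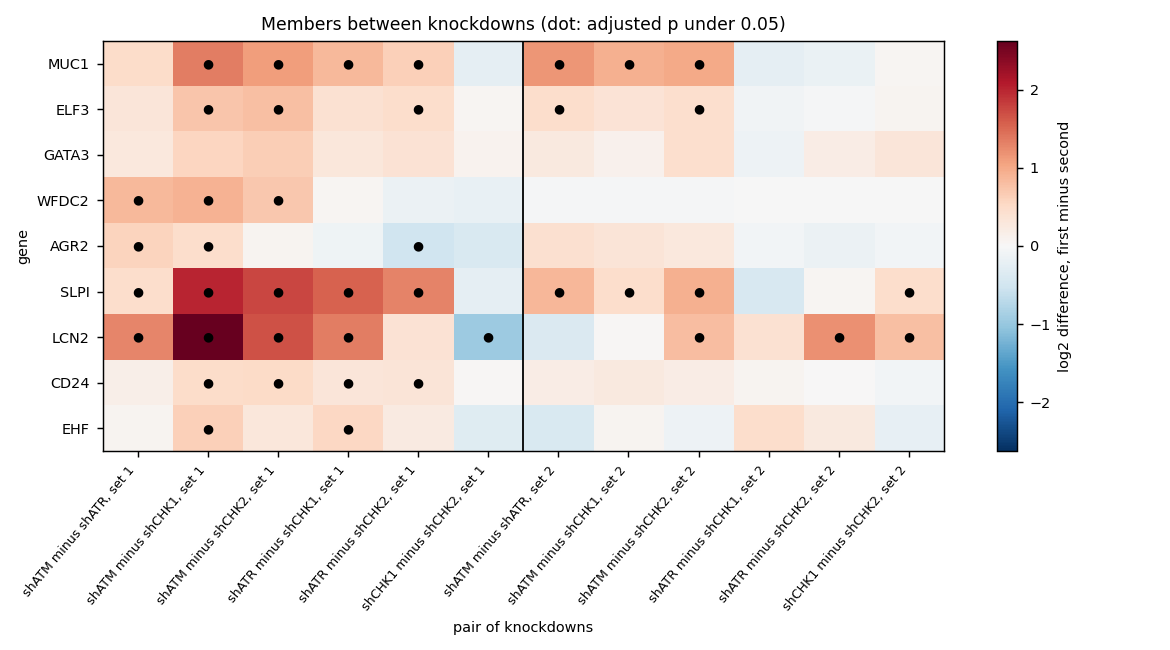
Log2 difference (colour, first minus second shRNA) of the 9 members (y axis) in 12 pairs of knockdowns (x axis), set 1 left of the line. Dots mark an adjusted p under 0.05: 8 of 9 members are called between shATM and shCHK1 in set 1, and GATA3 in none.

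Levels also differed between sets within an shRNA. Of 45 member comparisons, 34 were called, beside 31.9% of all gene comparisons. With shControl, AGR2 was lower in set 2 by -2.70, GATA3 by -1.27, SLPI by -1.21, LCN2 by -0.68 and EHF by -0.61, while WFDC2 was higher by 2.53 and CD24 by 0.51. ELF3 (-0.04) and MUC1 (0.46, adjusted p = 0.078) were not called. AGR2 was lower in set 2 by -2.59 to -2.95 with all 5 shRNAs. LCN2 was lower by -4.99, -3.33, -2.40 and -4.14 with shATM, shATR, shCHK1 and shCHK2, and SLPI by -2.69, -3.11, -1.14 and -1.86. CD24 was higher in set 2 with shControl and lower with each knockdown (-0.70 to -1.04). What separates the sets is not given, so set and any culture or batch difference cannot be told apart.

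**Figure D4:**
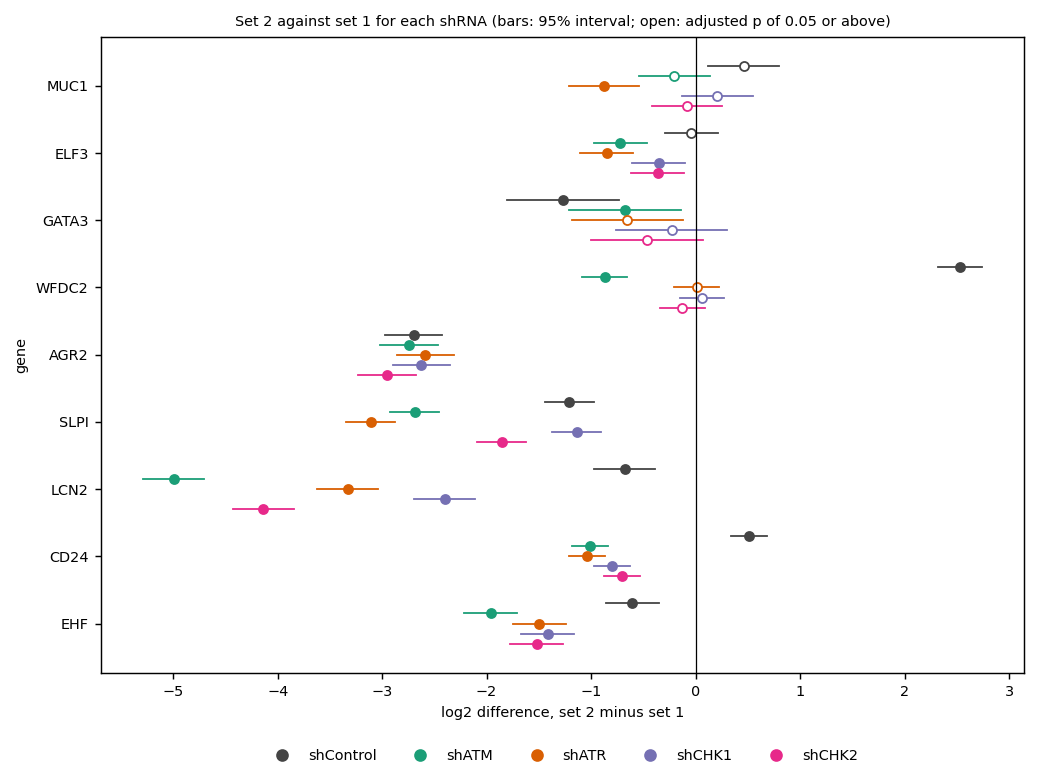
Log2 difference of set 2 from set 1 (x axis) for each shRNA (colour) and member (y axis). Bars are unadjusted 95% intervals and open points have an adjusted p of 0.05 or above. The AGR2 values lie between -2.95 and -2.59, and those of LCN2 between -4.99 and -0.68.

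The difference of a knockdown from shControl was itself compared between sets, and 24 of 36 member contrasts were called, beside 28.1% of all genes. EHF, LCN2, WFDC2 and CD24 were called for all 4 knockdowns, beside 14.1% of all genes. LCN2 gave -4.32, -2.65, -1.72 and -3.46 (set 2 minus set 1) and CD24 -1.52, -1.55, -1.31 and -1.21. AGR2 was called for none (adjusted p 0.37 to 0.91), but with the authors' deposited log2 values all 4 were called above 0 (0.33 to 0.71), and with median scaling shCHK2 was called below 0 (-0.71). The calls for MUC1 with shATM and GATA3 with shCHK1 were lost without single arrays. WFDC2 contrasts (-2.47 to -3.40) rest on knockdown groups below background and on brighter controls in set 2.

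Over the 10 group means the members fell into patterns, given as a description since all genes were read on the same arrays and normalized together. MUC1 and ELF3 correlated at 0.99, and MUC1 with WFDC2 and GATA3 at 0.93 each. In these genes both control means lay above all knockdown means, a gap that weighs heavily in their correlations. SLPI correlated with LCN2 at 0.94 and with AGR2 at 0.91, and LCN2 with CD24 at 0.92. The correlation of MUC1 with EHF was 0.00. Among 13712 non-member genes, the most alike by correlation was TYMP for MUC1 (0.995), ANKRD33 for ELF3 (0.997), KRT16 for EHF (0.969) and ALDH3B2 for GATA3 (0.992). It was PERP for SLPI (0.984), EDF1 for LCN2 (0.987), APOBEC3H for WFDC2 (0.996), RGL2 for AGR2 (0.984) and WFDC3 for CD24 (0.984). Each is the highest of many correlations over only 10 means and does not compare sizes. The means of PERP spanned 0.79 log2 units beside 3.95 for SLPI, EDF1 0.78 beside 5.81 for LCN2, and APOBEC3H 1.05 beside 4.97 for WFDC2. KRT16 (3.28 beside 2.03 for EHF) and WFDC3 (3.22 beside 1.38 for CD24) spanned more than the member. WFDC2 was not detected in 7 groups.

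Other genes of luminal epithelium are set beside the share of all genes called in the same 8 comparisons, 23.4% to 29% lower and 23.1% to 25% higher. Of 22 luminal surface proteins and simple keratins measured, 15 to 17 were called lower and 1 or 2 higher in the 8 comparisons, with medians of -0.58 to -1.75. All genes had medians of -0.01 to 0.01, which quantile normalization tends to hold near 0. With shATM, KRT23, a keratin, was at least 13.3-fold lower in set 1 and 5.25-fold in set 2, and ANPEP, an aminopeptidase, at least 42.5- and 83.5-fold lower. CEACAM1, an adhesion molecule, was lower with shATM by -4.08 and -4.82. KRT18, a simple keratin, went against the list, with 7 of 8 differences called higher. Of 18 luminal transcription factors, 7 to 10 were lower and 2 to 5 higher, with medians of -0.15 to -0.34; FOXA1, a pioneer factor of luminal cells, was lower in all 8 (-0.81 to -1.64). TBX3, a transcription factor, was higher in all 8, by 1.41 to 2.02 in set 1 and 1.10 to 1.46 in set 2, from controls close to background. BCL11A, another transcription factor, was higher in set 2 (1.41 to 2.02) and in set 1 with shATM (0.83) and shCHK2 (0.92), while shATR (0.50, adjusted p = 0.085) and shCHK1 (0.30, adjusted p = 0.33) were not called. PRLR, the prolactin receptor, was at least 3.13- to 4.74-fold higher in set 1. In set 2 it was at least 1.13- and 1.20-fold higher with shATM and shATR and was not called with shCHK1 (adjusted p = 0.094) and shCHK2 (adjusted p = 0.53).

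Of 14 other mucins and mucin partners, 5 or 6 were lower and 0 to 3 higher, medians -0.42 to 0.02, beside 23.4% to 29% of all genes lower. MUC16 was lower by -1.68 to -3.08 in set 1 and, where it was not detected in set 2, at least 14.8- to 15.2-fold. With shATM, MSLN, which binds MUC16, was at least 143-fold lower in set 1 and 122-fold in set 2, and GCNT3, a glycosyltransferase of mucins, at least 9.82- and 12.4-fold. Of 19 other secretory and antimicrobial products, 9 to 11 were lower and 1 to 5 higher, beside 23.4% to 29% and 23.1% to 25% of all genes, with medians of -0.30 to -0.86. S100P, a calcium-binding protein, was lower by -3.001 to -5.45 in set 1 and by -5.48 to -7.08 in set 2. With shATM, TCN1, a vitamin B12 carrier, was at least 86.4-fold lower in set 1 and 24.7-fold in set 2, and RARRES1 at least 649- and 404-fold. Of 17 ETS family factors, 4 to 6 were lower and 4 to 8 higher, with medians of 0.12 to 0.27; the lower counts lie near the share of all genes (23.4% to 29%). ETS2 was higher by 1.56 to 2.78. With shATM, FLI1 was higher by 3.22 in set 1, where 1 of 3 control arrays detected it, and at least 16.4-fold in set 2, while SPIC was at least 5.32-fold lower in set 1 and 2.01-fold in set 2. Of 3 GATA family genes and cofactors, 2 were lower in each comparison; TRPS1, an atypical GATA factor, was lower by -1.67 to -2.06 and ZFPM1, a GATA cofactor, by -1.31 to -3.10.

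**Figure D5:**
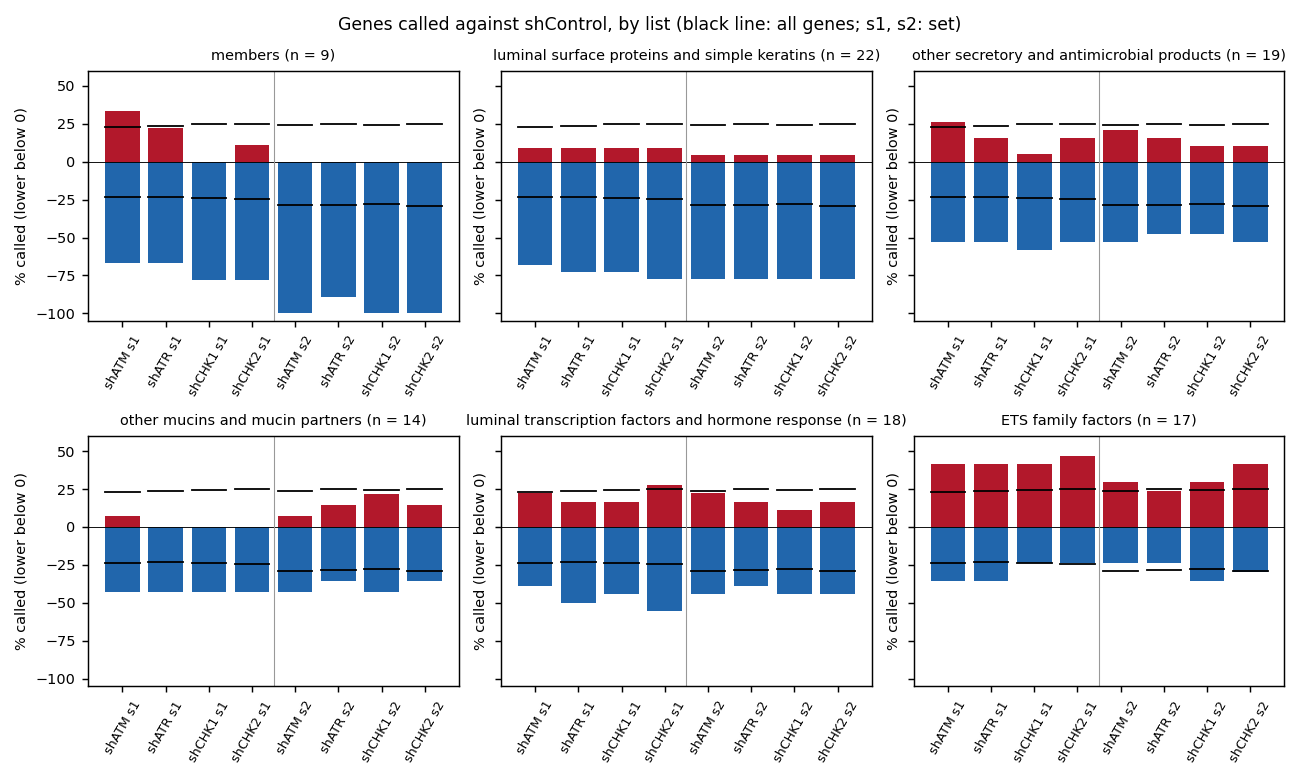
Percent of genes called higher (above 0) or lower (below 0) against shControl in each of the 8 comparisons (x axis) for the 9 members and 5 lists. Black lines give the same percent over all genes measured. The members and every list except the ETS family factors exceed that line on the lower side in all 8 comparisons.

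Markers of other cell states also differed from shControl, in directions that varied by list and set. In the 8 comparisons, 23.4% to 29% of all genes were called lower and 23.1% to 25% higher. A summed level is the log2 of summed linear values, so bright markers weigh most. All 9 basal and general breast epithelial markers measured were detected on every array, and their summed level was 14.98 to 15.30 in set 1 knockdowns, 14.26 to 14.30 in set 2 knockdowns, and 14.34 and 14.78 in controls. In the 4 comparisons of set 1, 6 to 8 of these 9 were called higher and 1 lower, and in set 2, 1 or 2 higher and 4 to 6 lower. Of 6 mesenchymal markers measured, 2 to 4 were higher and 0 lower in set 1, and 2 or 3 were higher and 2 or 3 lower in set 2. Their summed level was 10.46 and 10.36 in controls and 12.80 to 13.70 in knockdowns. Their median difference was 0.02 to 1.41 in set 1 and -0.14 to 0.45 in set 2. VIM and SNAI2 were higher in all 8 comparisons, by 2.23 to 3.32 and 4.42 to 6.28, while ZEB2 and TWIST1 were each lower in 4. CDH1, an epithelial cadherin from the basal and general epithelial list, was lower in all 8 (-0.29 to -1.81), while most of that list was higher in set 1. Of 12 leukocyte markers, 7 were measured and the summed level was 10.95 to 12.20, highest in controls. In set 1, 4 of the 7 were lower and 0 higher, and in set 2, 2 were lower and 0 to 2 higher. CD14 and CSF1R were lower in all 8, CD14 by -2.26 to -4.74, while LYZ was higher in 2, and PTPRC was detected on at most 1 array. Of 11 fibroblast and endothelial markers, 5 were measured, with PDGFRB and VWF on 0 arrays. The summed level of the 5 was 8.23 and 8.66 in controls and 6.98 to 7.92 in knockdowns, and PECAM1 and CDH5 were lower in all 8. The part of these markers in the member differences was not tested.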

How the data were processed

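Illumina bead arrays of 30 samples were analysed. The deposited table holds linear intensity values with a detection p-value per probe and array, per the file headers, and the authors also deposited log2 values (median 6.88 in each column), used as an alternative. The authors' software is not given in the sources used here. Background correction and quantile normalization used neqc of limma 3.58.1 (R 4.3.3), offset 16, and probes with a detection p under 0.05 on at least 3 arrays were kept. Of 47231 probes, 30113 had 1 gene symbol, 8 several and 17110 none. A model with 10 group means was fitted on 26967 probes with limma (20 residual degrees of freedom), p-values were two-sided and Benjamini-Hochberg adjusted within each comparison over all probes, and a call is an adjusted p under 0.05. The number of arrays limits precision. The procedure was tested on simulated data. The members and gene lists were chosen with earlier results of these data known. Genes named from lists are, at most 3 each, those with the largest mean difference; FOXA1, KRT18 and the markers named were chosen after their values were seen. Deviations of same-numbered arrays had a median correlation of 0.005 over 135 pairs (highest 0.43, 3 pairs over 0.1), so replicate numbers were not taken to pair arrays. Alternatives are given in the closing section. MUC20 is not reported.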

Additional observations from a re-analysis of the deposited data

Results flagged for a closer look

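The difference of a knockdown from shControl differed between sets, by the interaction contrast in limma (adjusted p under 0.05, set 2 minus set 1, log2), for 24 member contrasts. MUC1 gave -0.66 for shATM and -1.34 for shATR; the shATM call (adjusted p = 0.037) was lost without any of 7 single arrays (adjusted p 0.056 to 0.12) and with no filter on dim probes (0.056). ELF3 gave -0.68 for shATM and -0.81 for shATR. EHF gave -1.35 for shATM, -0.89 for shATR, -0.81 for shCHK1 and -0.92 for shCHK2. GATA3 gave 1.04 for shCHK1 (adjusted p = 0.039), which was lost with median scaling (0.80, adjusted p = 0.075), with no filter on dim probes (0.063) and without any of 8 single arrays (0.063 to 0.10). SLPI gave -1.48 for shATM, -1.90 for shATR and -0.65 for shCHK2. LCN2 gave -4.32 for shATM, -2.65 for shATR, -1.72 for shCHK1 and -3.46 for shCHK2. WFDC2 gave -3.40 for shATM, -2.52 for shATR, -2.47 for shCHK1 and -2.66 for shCHK2. These WFDC2 values rest on brighter controls in set 2 and on knockdown groups below background, save shATM in set 1, so they are not exact sizes. CD24 gave -1.52 for shATM, -1.55 for shATR, -1.31 for shCHK1 and -1.21 for shCHK2. AGR2 was not called in any of the 4 contrasts by its bright probe, but was called above 0 in all 4 with the authors' deposited log2 values (for shATR 0.71, adjusted p = 1.5e-05; for shCHK1 0.65, adjusted p = 5.8e-05) and below 0 for shCHK2 with median scaling (-0.71, adjusted p = 0.035). What separates the sets is not given, and why they differ was not tested.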

How the results depend on the processing

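Against shControl, 59 to 62 member comparisons were called lower under every alternative except the strict filter, which dropped WFDC2 (53 lower of the 64 left), and 6 were called higher in each. Leaving out single arrays gave 60 to 61 lower and 5 to 6 higher. Between knockdowns, 41 calls became 25 with median scaling, 40 to 46 under the other alternatives and 34 to 43 without single arrays. Between sets, 34 calls ranged from 33 to 36, and 33 to 35 without single arrays; the interaction count of 24 ranged from 20 to 33, and 22 to 24 without single arrays. The replicate block gave 61, 6, 41, 33 and 24 calls, and the added alternative without both arrays that stand apart, chosen after seeing the data, gave 61, 6, 40, 34 and 24. AGR2 interaction contrasts changed sign and were called: for shATM to 0.427 with the authors' log2 values, 0.412 without background correction and 1.43 with the mean of its probes; for shCHK2 to 0.332, 0.316 and 0.817. The mean of probes takes in the second AGR2 probe, whose set 2 controls were near background. Why the contrasts changed was not tested. Under at least 1 alternative or without a single array, 5 of 67 calls against shControl, 18 of 41 between knockdowns, 5 of 34 between sets and 2 of 24 interactions were lost. Against shControl these were SLPI with shATM in set 1 (median scaling -0.25; without shControl set 1 replicate 2, adjusted p = 0.070; without shATM set 1 replicate 3, 0.063), CD24 with shATM in set 1 (median scaling, 0.066), CD24 with shATR in set 1 (without shControl set 1 replicate 1, 0.14; without shATR set 1 replicate 3, 0.078), LCN2 with shCHK2 in set 1 (median scaling -0.35, 0.14) and EHF with shCHK2 in set 2 (without its replicate 2, 0.064). Between knockdowns, 13 of the 18 were lost without a single array, among them MUC1 (adjusted p 0.058 to 0.15), ELF3 (0.051 to 0.20) and AGR2 (0.10 to 0.14) for shATR against shCHK2 in set 1; MUC1 for shATM against shCHK1 in set 2 was lost with the mean of its probes (0.11) and LCN2 for shCHK1 against shCHK2 in set 2 with median scaling (0.060). Between sets the lost calls were EHF and LCN2 with shControl (median scaling, 0.067 and 0.051), GATA3 with shATM (replicate block, 0.057; no filter on dim probes, 0.076; without each of 3 arrays, 0.13 to 0.34), and ELF3 with shCHK1 and shCHK2 (without each of 4 and 2 arrays, 0.066 to 0.13 and 0.070 to 0.089). The interactions lost were MUC1 with shATM and GATA3 with shCHK1. LCN2 with shATR in set 1 became called with the authors' values (0.0044) and EHF with shCHK1 in set 1 with median scaling (0.42, 0.044). Median scaling moved the median of all probes in set 1 by up to 0.15, and with the arrays labelled shATR called 7324 probes higher and 3233 lower, in place of 5472 and 5027; for shCHK1 it called 6894 and 3631 in place of 5798 and 5183, and for shCHK2 8204 and 3243 in place of 5808 and 5192. Probes near background limit what WFDC2, GATA3 and MUC1 can show in the knockdown groups.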
